A study of Homo sapiens with 4 samples.

Results

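The genes described here make the proteins that sense broken or mismatched DNA, stop the cell cycle and carry out repair. A fixed list of 37 such genes was matched by symbol to the probe sets that the array annotation pairs with 1 gene alone, and 34 of the 18132 genes measured were found this way. The 3 others, 1 of homologous recombination and 2 of the Fanconi anaemia pathway, were not analysed here. Each gene is represented by its brightest probe set over the 4 arrays, a choice that does not use the groups. The 34 genes have 89 probe sets in all.

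The series was made to find genes downstream of ARID1A, part of the SWI/SNF machinery that remodels chromatin. In the knockdown group, OE33 cells received pooled siRNAs that target ARID1A (ON-TARGETplus SMARTpool). In the mock group the same cells received a pool of non-targeting siRNAs, so both groups carry siRNA at a final 50 nM and the Lipofectamine reagent. OE33 is 1 established human cell line from an oesophageal adenocarcinoma, grown in 15% serum and harvested 48 hours after transfection. Each group has 2 arrays (Affymetrix Human PrimeView), described by the series as biological replicates, and nothing says whether they came from separate cultures, so the p-values measure only the spread between these arrays. Arrays give no depth of reads. Precision is limited by how many were run. All levels are log2 expression values and all changes are log2 differences, knockdown minus mock.

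At its brightest probe set, ARID1A itself had levels of 7.53 and 7.53 in the knockdown arrays against 9.28 and 9.33 in the mock arrays. The change there was -1.78 (adjusted p = 0.0218 in limma), which left 29.2% of the mock level. It did not pass with a replicate block (0.217), a crossed block (0.187) or any 1 array left out (0.244 to 0.521), where the change stayed between -1.80 and -1.75. Of the 6 ARID1A probe sets, 5 had negative changes, from -1.78 to -0.36, 1 was at 0.11, and 4 passed the test. With the median over its probe sets, the ARID1A change was -1.21 (adjusted p = 0.0173 in limma). The epithelial markers fit the labelled cell type, with a median percentile of 98.3 among probe sets over the 10 markers. The lowest, GRHL2, was at 59.9. The mean level of epithelial markers was 11.73 to 11.77 in knockdown arrays and 11.66 to 11.68 in mock arrays. None of the 21 measured markers of fibroblasts, leukocytes and endothelium lay above the 56.9th percentile, and all 6 endothelial markers had negative changes, with a mean level of 5.09 to 5.21 in knockdown arrays and 5.27 to 5.36 in mock arrays. For beta-actin, the gap between 3′ and 5′ control signals, which reflects how intact RNA is, was 1.21 and 1.098 in knockdown arrays and 1.04 and 0.995 in mock arrays. The same gap for GAPDH was 0.201 and 0.215 in knockdown arrays and 0.199 and 0.211 in mock arrays. Fibroblast markers averaged 4.03 to 4.13 in knockdown arrays and 4.10 to 4.22 in mock arrays, while leukocyte markers averaged 4.64 in knockdown arrays and 4.69 in mock arrays. The part of these marker and integrity values in the results below was not tested. In such bulk RNA a smaller share of cells in one cycle phase and less RNA per cell cannot be told apart.

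Cells meet DNA breaks with a relay. The MRE11, RAD50 and NBN complex binds broken ends and activates the kinase ATM, while single-stranded DNA calls in ATR with its partner ATRIP. These kinases switch on CHEK1 and CHEK2, and WEE1 holds CDK1 inactive, so that a cell with damaged DNA does not divide. Breaks are then mended with a sister copy as the template, by homologous recombination, or rejoined directly by end joining, while the Fanconi anaemia, mismatch and single-strand break pathways deal with crosslinks, copying errors and nicks.

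None of the 34 genes passed the test at an adjusted p of 0.05 in limma, against 0.403% of the 18132 genes measured (0.188% higher and 0.215% lower). WEE1 came nearest, with levels 1.63-fold higher in the knockdown cells. Counted at an unadjusted p under 0.05, 5 genes were higher (WEE1, TP53BP1, CHEK2, MRE11 and BARD1), against 9.76% of all genes, and 2 were lower (PMS2 and XRCC2), against 7.25%. As shares of the 34 genes these are 14.7% and 5.88%. The median change of the 34 was 0.01 and that of all genes -0.00, with 20 positive and 14 negative changes. The median size of a change was 0.0854 over the 34 genes and 0.0993 over all genes.

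**Figure D1:**
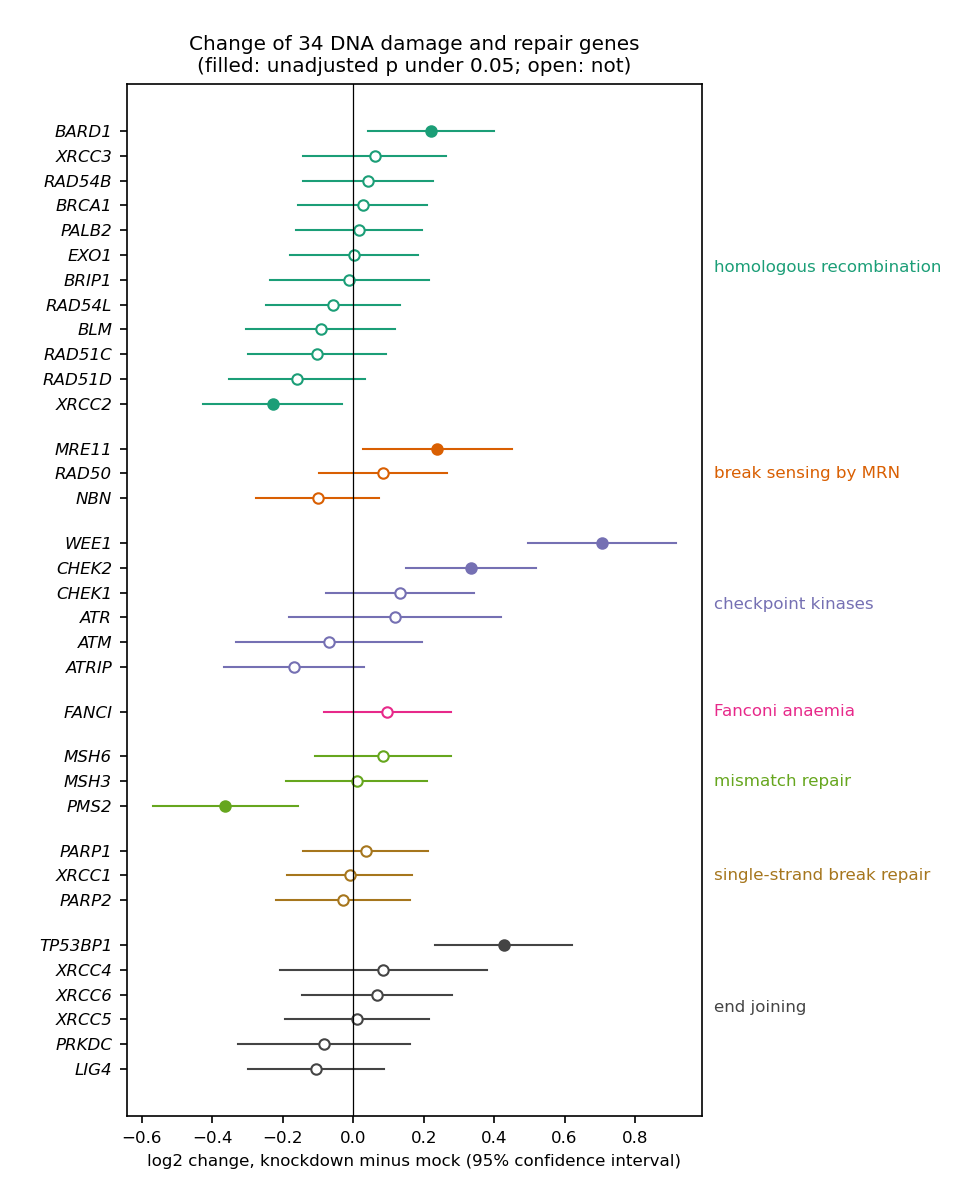
Log2 change, knockdown minus mock, of the 34 genes by role, with the 95% confidence interval of the moderated fit over 2 arrays a group. Filled points have an unadjusted p under 0.05, and none has an adjusted p under 0.05. WEE1 stands farthest to the right at 0.71, and PMS2 farthest to the left at -0.36.

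The ranges of the 2 groups did not overlap for 17 of the 34 genes, against 49.4% of all genes. Knockdown arrays lay wholly above mock arrays for 10 (29.4%), against 25.8% of all genes, and wholly below for 7 (20.6%), against 23.6%. These shares are near those of all genes. The 95% confidence interval reached a median of 0.195 to either side over the 34 genes, before any adjustment for the number of probe sets tested.

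The checkpoint kinases, grouped here with ATRIP, the partner of ATR, held the widest spread, from -0.17 for ATRIP to 0.71 for WEE1. Their median of 0.13 over 6 genes rested on single arrays, at 0.24 without knockdown replicate 1 and 0.0070 without knockdown replicate 2. WEE1, the kinase that places the inhibitory phosphate on CDK1 before mitosis, had levels of 10.80 and 10.90 in knockdown arrays against 10.20 and 10.08 in mock arrays. The nearest arrays of the groups were 0.596 apart. The change was 0.71 (SE 0.0842, 95% interval 0.50 to 0.92, adjusted p = 0.0525 in limma), and by unadjusted p WEE1 stood 95th among the 18132 genes. WEE1 passed the test with the arrays centred on their medians (adjusted p = 0.0190), after quantile normalization (0.0402), with dim probe sets left out (0.00996), with a variance trend (1.24e-04) and with 1 value per gene (0.0256). It did not pass with a replicate block (0.265), a crossed block (0.187) or any 1 array left out (0.262 to 0.521). It has 1 probe set, whose ending _s_at marks probes that can match other sequences.

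CHEK2, the effector kinase downstream of ATM, had levels of 8.29 and 8.34 in knockdown arrays against 8.01 and 7.95 in mock arrays. Its change was 0.33 (95% interval 0.15 to 0.52, adjusted p = 0.133 in limma), and the groups did not overlap. The other CHEK2 probe set went the other way, at -0.27 (adjusted p = 0.415), with 5.64 and 5.64 in knockdown arrays against 6.12 and 5.71 in mock arrays. Both probe sets end in _x_at, and CHEK2 has near-identical copies elsewhere in the genome, so its direction is uncertain. CHEK1, the effector kinase downstream of ATR, had a change of 0.13 (adjusted p = 0.502) at its brightest probe set. All 6 of its probe sets were positive, from 0.13 to 0.23, and 3 of these had an unadjusted p under 0.05.

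The upstream kinases and ATRIP showed no shared direction. ATM had a change of -0.07 (95% interval -0.33 to 0.20), with 4 of 5 probe sets negative. ATR had a change of 0.12 (95% interval -0.18 to 0.42), and its 2 knockdown arrays differed from each other, at 8.09 and 8.41, by more than the groups did. ATRIP, which recruits ATR to single-stranded DNA, lay lower in both knockdown arrays, at 6.09 and 5.98 against 6.18 and 6.24 in mock arrays, with an adjusted p of 0.375 in limma.

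**Figure D2:**
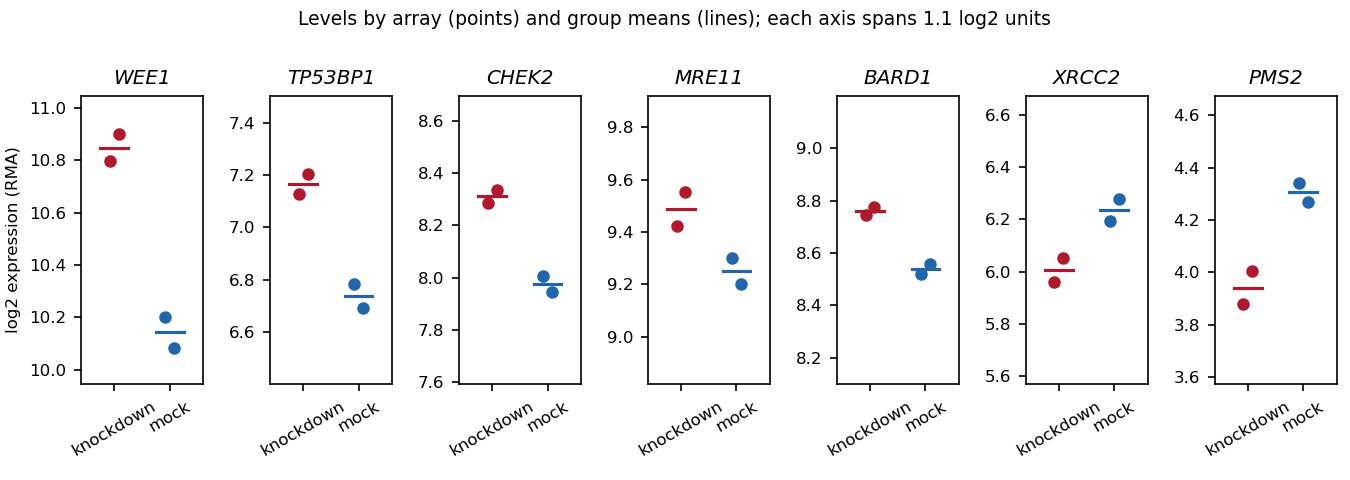
Log2 level in each of the 4 arrays for the 7 genes with an unadjusted p under 0.05. Points are arrays, lines are group means over 2 arrays, and every panel spans the same number of log2 units. Knockdown points lie wholly above mock points for WEE1, TP53BP1, CHEK2, MRE11 and BARD1, and wholly below for XRCC2 and PMS2.

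At their brightest probe sets, the 3 subunits of the break-sensing complex differed among themselves. MRE11, its nuclease, had levels of 9.42 and 9.55 in knockdown arrays against 9.30 and 9.20 in mock arrays, a change of 0.24 (95% interval 0.03 to 0.45, adjusted p = 0.263 in limma). The groups did not overlap at this probe set, but its 4 other probe sets had changes from -0.17 to 0.00, and none of these had an unadjusted p under 0.05. With the median over its probe sets in place of the brightest, the MRE11 change was 0.00. RAD50, the ATPase that bridges the ends, had a change of 0.08. Its other probe sets were at -0.09 and 0.01, and with the median over its probe sets the RAD50 change was 0.01. NBN, the subunit that calls in ATM, had 9.35 and 9.35 in knockdown arrays against 9.46 and 9.44 in mock arrays, a change of -0.10 (adjusted p = 0.537). Its 4 other probe sets were all positive, from 0.06 to 0.20, and with the median over all its probe sets the NBN change was 0.05.

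Homologous recombination genes had a median change of -0.00 over 12 genes, with 6 positive and 6 negative. BARD1, the partner of BRCA1 in a ubiquitin ligase, had levels of 8.75 and 8.77 in knockdown arrays against 8.52 and 8.56 in mock arrays. Its change was 0.22 (95% interval 0.04 to 0.40, adjusted p = 0.235 in limma), and it has 1 probe set. BRCA1 had a change of 0.03 at its brightest probe set, while all 5 of its probe sets were positive, from 0.03 to 0.21, none with an unadjusted p under 0.05. PALB2, which links BRCA1 to the strand-exchange step, had a change of 0.02.

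Of the 4 paralogues that assist strand exchange, 3 had negative changes. XRCC2 had levels of 5.96 and 6.05 in knockdown arrays against 6.19 and 6.28 in mock arrays, a change of -0.23 (95% interval -0.43 to -0.03, adjusted p = 0.254 in limma). The groups did not overlap there, yet its other probe set had a change of 0.10 (adjusted p = 0.637), and both end in _x_at. RAD51D had levels of 6.72 and 6.82 in knockdown arrays against 6.90 and 6.96 in mock arrays, a change of -0.16 (adjusted p = 0.387). All 5 of its probe sets were negative, from -0.33 to -0.12, and 2 had an unadjusted p under 0.05. RAD51C had a change of -0.10 and its groups did not overlap, while XRCC3 had a change of 0.06 and overlapping groups.

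The remaining recombination genes lay between -0.09 and 0.04. These are the helicases BLM (-0.09) and BRIP1 (-0.01), the resecting nuclease EXO1 (0.00) and the motor proteins RAD54L (-0.06) and RAD54B (0.04). Their groups overlapped in every case. The second probe set of BRIP1 had a change of 0.38 (adjusted p = 0.166), on levels of 3.99 and 3.86 in knockdown arrays against 3.45 and 3.63 in mock arrays.

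In the Fanconi anaemia pathway FANCI, a subunit of the clamp that marks crosslinks, had levels of 9.22 and 9.16 in knockdown arrays against 9.10 and 9.08 in mock arrays. Its change was 0.10 (95% interval -0.08 to 0.28, adjusted p = 0.565 in limma), and of its 3 probe sets 2 were positive and 1 negative. Among the mismatch repair genes, MSH6, which recognises mispaired bases, had levels of 10.10 and 10.20 in knockdown arrays against 10.09 and 10.04 in mock arrays, a change of 0.08 (adjusted p = 0.650), and its other probe set had a change of 0.16. MSH3, which recognises small loops, had a change of 0.01 with overlapping groups.

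PMS2, an endonuclease subunit of mismatch repair, had levels of 3.88 and 4.004 in knockdown arrays against 4.34 and 4.27 in mock arrays. Its change was -0.36 (95% interval -0.57 to -0.16, adjusted p = 0.140 in limma), the most negative of the 34 genes. Its level was brighter than 22.7% of probe sets. The probe set ends in _x_at and PMS2 has near-identical pseudogenes, so the value is uncertain.

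Single-strand break repair had a median size of change of 0.0297 over 3 genes, the smallest of the 7 roles. PARP1, which binds nicks and signals with poly(ADP-ribose), had levels of 9.24 and 9.28 in knockdown arrays against 9.23 and 9.22 in mock arrays, a change of 0.04 (95% interval -0.14 to 0.21, adjusted p = 0.860 in limma). Of its 4 probe sets 3 were positive, the largest at 0.22. PARP2, its close relative, had levels of 8.68 and 8.68 in knockdown arrays against 8.76 and 8.66 in mock arrays, a change of -0.03 (95% interval -0.22 to 0.16, adjusted p = 0.896), with 2 of 3 probe sets negative. XRCC1, the scaffold of this pathway, had a change of -0.01 (95% interval -0.19 to 0.17).

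End joining had a median change of 0.04 over 6 genes, which was 0.11 without knockdown replicate 1 and -0.03 without knockdown replicate 2. TP53BP1, which protects broken ends from resection and so steers repair towards end joining, had levels of 7.13 and 7.20 in knockdown arrays against 6.78 and 6.69 in mock arrays. The change was 0.43 (SE 0.0781, 95% interval 0.23 to 0.62, adjusted p = 0.101 in limma), or 1.35-fold, and the nearest arrays of the groups were 0.346 apart. Of its 4 probe sets, 3 were positive with an unadjusted p under 0.05, at 0.43, 0.53 and 0.29. The fourth had a change of -0.02, on levels of 5.36 and 4.89 in knockdown arrays against 5.21 and 5.07 in mock arrays.

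The core ligation factors lay near their mock levels. XRCC6 and XRCC5, which form the Ku ring on broken ends, had changes of 0.07 and 0.01, and PRKDC, the kinase that binds Ku, had a change of -0.08. LIG4, the ligase, had levels of 6.73 and 6.76 in knockdown arrays against 6.80 and 6.90 in mock arrays, a change of -0.11 (adjusted p = 0.560 in limma) at its 1 probe set. XRCC4, the partner of LIG4, had a change of 0.09, and its mock arrays differed from each other, at 8.77 and 8.48, by more than the groups did.

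Over all 89 probe sets of the 34 genes, 0 passed the test in limma, against 0.316% of the 49293 tested. At an unadjusted p under 0.05 there were 12 higher (13.5%), against 9.1% of those tested, and 4 lower (4.49%), against 7.07%. Probe sets of 1 gene share its transcripts and are not independent. More than 1 probe set was present for 22 genes. In 4 of these every probe set had the same sign, namely BRCA1, CHEK1 and MSH6 (positive) and RAD51D (negative). The other 18 had probe sets of both signs. The small changes of BRCA1, PALB2, BRIP1, EXO1, MSH3, PARP1 and XRCC5 turned sign after quantile normalization.

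**Figure D3:**
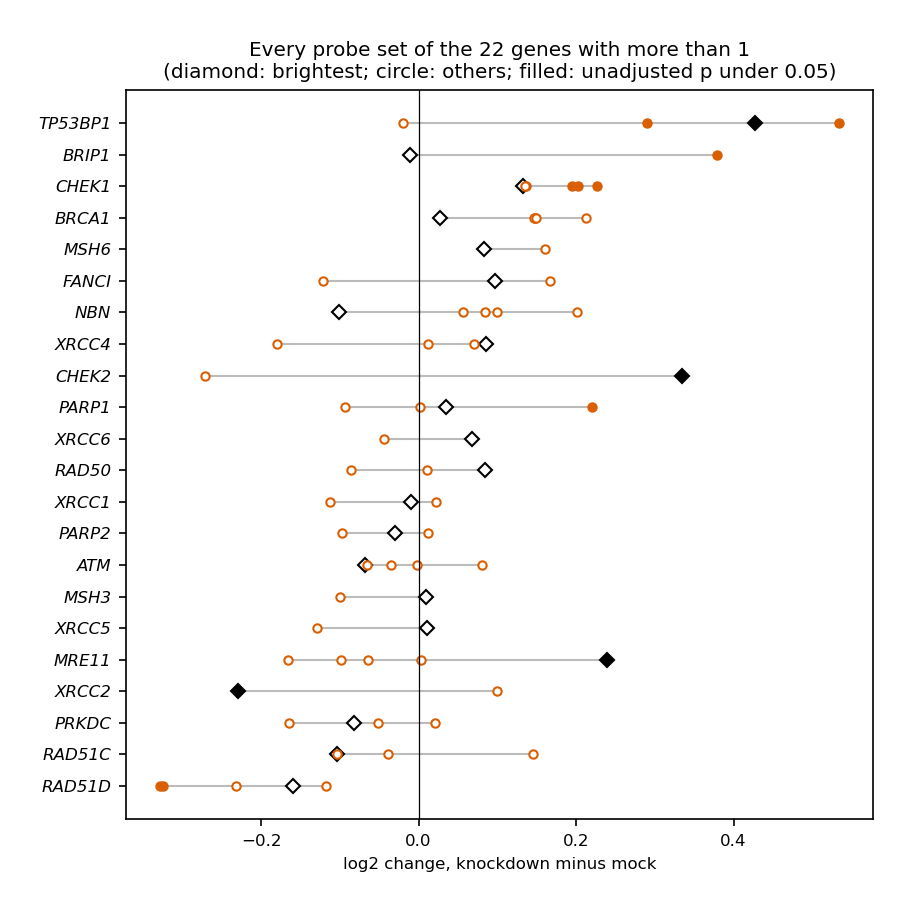
Log2 change, knockdown minus mock, at every probe set of the 22 genes with more than 1, sorted by their median. Diamonds are the brightest probe set of a gene, circles its others, and filled symbols have an unadjusted p under 0.05. CHEK1 and BRCA1 lie wholly right of 0, RAD51D wholly left, and CHEK2, MRE11 and XRCC2 have probe sets on both sides.

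The promoters of 28 of the 34 genes were found in a RefSeq table of build GRCh38.p14, and the 250 bases before the gene start are shown for the genes with an unadjusted p under 0.05 and 1 start in that table, since these are the members described most fully above. WEE1 is named only. Capitals mark 3 motifs searched on both strands, none of which overlaps another in these windows: the CCAAT box (CCAAT, or ATTGG on the opposite strand), an E2F-like motif (TTTNNCGC, or GCGNNAAA) and the CHR element (TTTGAA, or TTCAAA).
CHEK2 (chr22:28741821-28742070, minus strand): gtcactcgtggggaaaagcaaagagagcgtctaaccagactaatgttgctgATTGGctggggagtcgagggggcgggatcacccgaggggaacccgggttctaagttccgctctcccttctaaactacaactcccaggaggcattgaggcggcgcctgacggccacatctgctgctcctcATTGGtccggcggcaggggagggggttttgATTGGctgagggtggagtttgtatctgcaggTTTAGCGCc
TP53BP1 (chr15:43510641-43510890, minus strand): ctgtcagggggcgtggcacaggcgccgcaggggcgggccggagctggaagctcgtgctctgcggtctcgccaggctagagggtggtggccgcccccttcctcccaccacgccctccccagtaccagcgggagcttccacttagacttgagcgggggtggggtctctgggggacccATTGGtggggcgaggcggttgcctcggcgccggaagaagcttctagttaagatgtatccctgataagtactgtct
MRE11 (chr11:94493845-94494094, minus strand): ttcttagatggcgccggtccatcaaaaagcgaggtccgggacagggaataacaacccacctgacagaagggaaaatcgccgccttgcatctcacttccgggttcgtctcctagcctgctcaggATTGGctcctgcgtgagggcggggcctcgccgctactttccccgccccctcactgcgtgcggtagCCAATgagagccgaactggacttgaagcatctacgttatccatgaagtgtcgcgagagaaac
BARD1 (chr2:214809684-214809933, minus strand): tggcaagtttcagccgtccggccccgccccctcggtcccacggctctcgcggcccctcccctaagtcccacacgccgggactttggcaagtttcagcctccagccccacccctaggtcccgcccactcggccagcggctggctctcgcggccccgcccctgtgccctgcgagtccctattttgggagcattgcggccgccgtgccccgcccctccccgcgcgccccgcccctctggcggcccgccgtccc
XRCC2 (chr7:152676142-152676391, minus strand): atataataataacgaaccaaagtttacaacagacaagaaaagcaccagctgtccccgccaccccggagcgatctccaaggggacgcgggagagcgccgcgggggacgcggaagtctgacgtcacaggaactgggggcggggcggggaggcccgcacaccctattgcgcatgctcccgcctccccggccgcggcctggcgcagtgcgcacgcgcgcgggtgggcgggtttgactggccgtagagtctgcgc

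CHEK2 holds 3 CCAAT boxes, starting 199, 70 and 40 bases before the gene start, and 1 E2F-like match starting 9 bases before it. MRE11 holds 2 CCAAT boxes (127 and 62 bases before) and TP53BP1 holds 1 (75 bases before). BARD1 and XRCC2 hold no match in this window. Of the 28 genes, 17 (60.7%) had a CCAAT box in at least 1 listed promoter, against 37.0% of 27305 genes, 5 (17.9%) had an E2F-like match, against 7.15%, and 3 (10.7%) had a CHR match, against 16.1%. A gene with more listed promoters has more places for a match. Counted by promoter, a CCAAT box was in 53.3% of the 45 promoters of these genes, against 32.0% of 35116. The E2F-like shares were 13.3% against 5.92%, and the CHR shares 6.67% against 13.3%. These are letter matches and say nothing of binding. The median GC content of the listed promoters was 65.6% for the 28 genes and 58.0% for all genes.

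The rest of the pathway was described by a further list of 106 repair and checkpoint genes, of which 98 were measured. None passed the test in limma. At an unadjusted p under 0.05, 12 were higher (12.2%), against 9.76% of all genes, and 9 lower (9.18%), against 7.25%. These shares are near those of all genes, and the median change was 0.01. Around WEE1, its fellow inhibitor of CDK1, PKMYT1, had 9.69 and 9.62 in knockdown arrays against 9.81 and 9.90 in mock arrays, a change of -0.20 (adjusted p = 0.293). CDC25C, the phosphatase that reverses WEE1, had 8.05 and 8.20 in knockdown arrays against 7.93 and 7.79 in mock arrays, a change of 0.27 (adjusted p = 0.258). CDC25A and CDC25B had changes of 0.02 and 0.05. The replication fork protector TIPIN had a change of -0.23 and its partner TIMELESS of 0.15.

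In homologous recombination beyond the fixed members, 2 of 19 genes were higher and 1 lower by unadjusted p. RAD51AP1, which stimulates strand exchange, had 8.89 and 9.05 in knockdown arrays against 9.43 and 9.40 in mock arrays, a change of -0.45 (adjusted p = 0.112 in limma). SFR1, a cofactor of strand exchange, had 11.39 and 11.41 in knockdown arrays against 11.04 and 10.95 in mock arrays, a change of 0.40 (adjusted p = 0.107). RMI2, a subunit of the complex in which BLM dissolves crossed DNA, had a change of 0.31, and RECQL5, another helicase, of -0.16.

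Of the other Fanconi anaemia genes, 1 of 13 was higher at an unadjusted p under 0.05, and the core complex subunits FANCG and FANCB had changes of 0.24 and 0.25. The ubiquitin-conjugating enzyme UBE2T had a change of 0.17 and the ligase FANCL of 0.15. PMS1, a mismatch repair relative of PMS2, had 9.68 and 9.75 in knockdown arrays against 9.43 and 9.21 in mock arrays, a change of 0.39 (adjusted p = 0.163 in limma). The replication clamp PCNA had a change of 0.05 and MLH3, another mismatch repair relative, of -0.04. The other end-joining and break-chromatin genes had a median of -0.06 over 14, with 10 negative. NHEJ1, a ligation cofactor, had a change of 0.26, and the histone variant H2AX, which marks breaks, had a change of -0.18. MDC1, which reads that mark, had a change of -0.14, and RIF1, which acts with TP53BP1, of -0.13.

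In base excision and single-strand break repair, 4 of 19 were higher and 3 lower by unadjusted p, where 17% of all genes pass in either direction. SMUG1 and NEIL2, which both cut out damaged bases, had changes of -0.34 and 0.25. The end-cleaning enzyme APTX had a change of -0.31 (-0.17 with unshared probe sets) and PARP3 of 0.31. In nucleotide excision repair, 2 of 11 were higher and 2 lower, and the partners DDB2 and DDB1, which find ultraviolet damage, had changes of 0.31 and -0.21. The helicase ERCC2 had a change of 0.23 and ERCC6, which frees stalled transcription, of -0.21. With the gene median these were -0.12 and 0.05, and NEIL2 was -0.09 with unshared probe sets, so their directions turned with the probe set. None of the 6 translesion synthesis genes had an unadjusted p under 0.05, and RAD18, which loads these polymerases, had a change of -0.14 (-0.0089 with the gene median). The polymerases POLH, REV3L and REV1 had changes of 0.09, -0.08 and 0.07.

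Genes that p53 switches on after damage had a median change of 0.06 over 11 genes, of which 1 was higher and 1 lower by unadjusted p. CDKN1A, the cell cycle inhibitor that is the best-known of them, had 8.82 and 8.75 in knockdown arrays against 8.85 and 8.84 in mock arrays, a change of -0.06 (adjusted p = 0.739 in limma). MDM2, the ligase that degrades p53, had 6.92 and 7.10 in knockdown arrays against 7.47 and 7.27 in mock arrays, a change of -0.36 (adjusted p = 0.205), which was -0.08 with the gene median. SESN1 and SESN2, which curb mTORC1, had changes of 0.24 and 0.25, and the phosphatase PPM1D of 0.14. SESN2 was at 0.44 without knockdown replicate 1 and 0.06 without knockdown replicate 2.

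Many repair genes are made in S phase, so markers of proliferation were read beside them. Their median change was -0.03 over 16 genes, of which 1 was higher and 3 lower by unadjusted p, with a mean level of 9.92 to 9.95 in knockdown arrays and 9.92 to 9.96 in mock arrays. MKI67, the standard marker of cycling cells, had 10.53 and 10.54 in knockdown arrays against 10.53 and 10.58 in mock arrays. The helicase subunit MCM3 had a change of -0.31 and MCM5 of -0.27, CCNB1, the mitotic cyclin, had one of -0.19, and TYMS, the thymidylate synthase, one of 0.24.

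**Figure D4:**
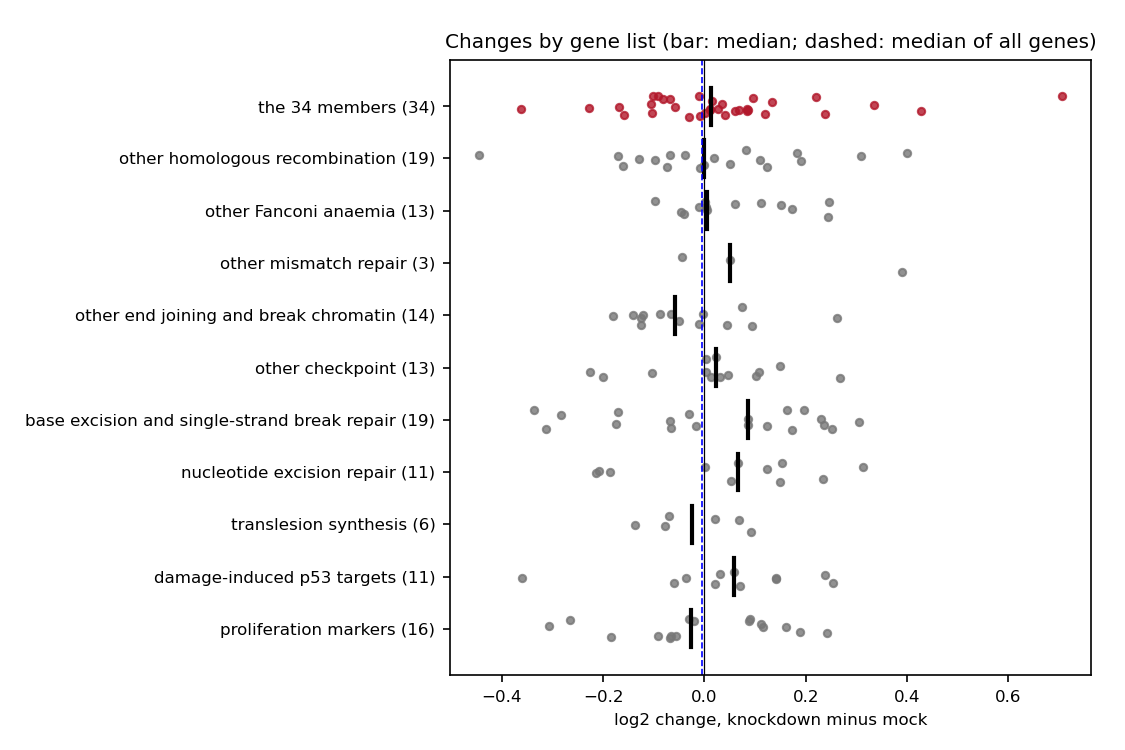
Log2 change, knockdown minus mock, of the 34 genes and of each further list, with the number of genes measured in parentheses. Points are genes, bars are list medians and the dashed line is the median of all genes. Medians run from -0.06 (other end joining and break chromatin) to 0.09 (base excision and single-strand break repair), and the higher of these was -0.02 with unshared probe sets or the gene median and 0.02 to 0.13 with 1 array left out.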

How the data were processed

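Total RNA of 4 OE33 samples was measured on Affymetrix PrimeView arrays. Each deposited value is a log2 expression level for 1 probe set. RMA and Partek were used, per the submitters' processing notes, which give no version or role. Where RMA is applied it sets arrays to a common distribution, so a change in total mRNA per cell is not visible. Separately, changes of dim probe sets are understated. Of 49372 probe sets, 79 controls were left out and 49293 tested, of which 44988 are paired with 1 gene. Symbols were checked by Entrez identifier against RefSeq (GRCh38.p14).

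Knockdown was compared with mock by limma (version 3.58.1, R 4.3.3; lmFit and eBayes), two-sided, with Benjamini-Hochberg adjustment over all 49293 probe sets and a threshold of 0.05. Residual degrees of freedom were 2, to which the prior added 3.62. On simulated data for this comparison (49293 probe sets) it recovered 1 of 50 probe sets at a log2 change of 0.5, 44 of 50 at 1, 47 of 50 at 1.5 and 50 of 50 at 2, and 11 of 153 calls were false. The members and lists were chosen with earlier results of these data known. Full values are given for ARID1A, for members with an unadjusted p under 0.05 and for the 2 smallest p of each role. Up to 4 genes of each further list are named by smallest p. CDC25A, CDC25B, CDKN1A, MKI67 and the other members given by array were chosen after seeing their values. Alternatives were another normalization, centring, a filter on dim probe sets, a variance trend, unshared probe sets, 1 median value per gene, replicate blocks and leaving out each array. The labels do not say that equal replicate numbers share a culture or day.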

Additional observations from a re-analysis of the deposited data

How the results depend on the processing

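The ARID1A change was -1.78 with a replicate block (adjusted p = 0.217) and with a crossed replicate block (adjusted p = 0.187), so it passed the test without a block and not with one, and it was -1.80 to -1.75 with 1 array left out, where no gene passed. The deviations of equal-numbered arrays correlated at -0.202, so the crossed pairing was added after seeing the data. Neither block gave any called gene. Of all genes, 73 were called in the unblocked fit, 138 with quantile normalization, 286 with centred arrays, 977 of 10614 with only bright probe sets, 1573 with a variance trend, 12 with unshared probe sets and 199 with 1 median value per gene. Of the 34 genes, the count called was 1 (WEE1) with quantile normalization, centring and the gene median. It was 3 (WEE1, CHEK2 and TP53BP1) with bright probe sets and with the trend. Of all genes, 9.2% were called with bright probe sets and 8.68% with the trend, so both counts are near the shares of all genes. Both CHEK2 calls rest on its brightest probe set. Its other probe set, at -0.27, lay at percentile 48.2 of level and was left out with bright probe sets. Only 32 of the 34 genes were analysed with bright probe sets, and only 27 with unshared probe sets. WEE1, CHEK2, XRCC2 and PMS2 were not among those 27, as all their probe sets end in _s_at or _x_at. Counts with unshared probe sets therefore leave these genes out and do not show that their changes were lost. At an unadjusted p under 0.05, the higher count was 3 with unshared probe sets, the gene median and the replicate block, and 3 to 5 with 1 array left out. The lower count was 1 with the trend (9.09% of all genes), the gene median (7.11%) and the replicate block (4.92%). It was 0 with unshared probe sets (6.65%). Genes wholly lower numbered 12 with quantile normalization (26.5% of all genes), 3 with unshared probe sets (22.9%), 4 with the gene median (23.0%) and 7 to 13 with 1 array left out (33.3% to 40.2%). Genes wholly higher numbered 11 to 18 with 1 array left out (36.2% to 38.4% of all genes). The median change was then -0.0084 to 0.042 for the 34 genes and -0.026 to 0.053 for the further list.

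Signs turned with quantile normalization for BRCA1 (-0.0011), PALB2 (-0.016), BRIP1 (0.0099), EXO1 (-0.024), MSH3 (-0.015), PARP1 (-0.00056) and XRCC5 (-0.0058). They turned with the gene median for BRIP1 (0.18), NBN (0.055), MSH3 (-0.045), PARP1 (-0.046), XRCC5 (-0.059), MLH3 (0.0050), ERCC2 (-0.12) and ERCC6 (0.054), and with unshared probe sets for NEIL2 (-0.086). With 1 array left out the ranges that crossed 0 were BRCA1 -0.0032 to 0.057, PALB2 -0.011 to 0.042, BRIP1 -0.091 to 0.070, EXO1 -0.030 to 0.033, ATM -0.17 to 0.038, ATR -0.041 to 0.28, MSH3 -0.047 to 0.067, PARP2 -0.080 to 0.021, XRCC1 -0.032 to 0.013, XRCC4 -0.058 to 0.23, XRCC5 -0.060 to 0.082, XRCC6 -0.0013 to 0.14, PRKDC -0.19 to 0.029, MLH3 -0.15 to 0.064 and REV1 -0.049 to 0.18. Values also moved by over 1.5 times, with the same sign, for RECQL5 (-0.03), FANCL (0.06), MDC1 (-0.09), POLH (0.05) and NEIL2 (0.08) with the gene median, for PKMYT1 (-0.12) and DDB1 (-0.12) with unshared probe sets, for FANCG (0.16), NHEJ1 (0.15) and MCM5 (-0.15) without knockdown replicate 2, and for FANCB (0.12), UBE2T (0.11) and DDB2 (0.18) without mock replicate 2. With the gene median, CHEK2 went from 0.33 to 0.03 and XRCC2 from -0.23 to -0.06. MRE11 went from 0.24 to 0.00 and RAD50 from 0.08 to 0.01. The same setting raised BRCA1 from 0.03 to 0.18 and FANCI from 0.10 to 0.17. The cause of these differences was not tested. In the simulation of this comparison, a change of 0.5 was recovered for 1 of 50 probe sets. The number of arrays was not varied there, so its part in this was not tested. The share of changed probe sets was set in the simulation and is not known for the real data, so recovery there may differ.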
